A study of Mus musculus with 6 samples.

Results

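The genes described here are 10 mouse genes of purine degradation, purine recycling and the making and sensing of extracellular adenosine: Xdh, Uox, Pnp, Ada, Adk, Nt5e, Entpd1, Entpd5, Adora2b and Hprt. Entpd5 is grouped with them, though it encodes an enzyme of the endoplasmic reticulum that cleaves nucleoside diphosphates such as UDP. The 10 genes were taken by symbol from a table of 29543 genes, and each matched 1 row. RNA was sequenced from mouse liver in 6 libraries: 3 from the IR injury group, in which hepatic ischemia and reperfusion followed a laparotomy, and 3 from the Sham group, which had the laparotomy alone. Strain, sex, age, lobe and the lengths of ischemia and reperfusion are not stated in the labels. The series title places Btg2, Fmo1, taurine synthesis and ferroptosis at the centre of the study, and purine genes are not named in it.

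Adenosine outside the cell is formed when surface enzymes strip phosphates from released ATP and ADP, and it acts on a family of G protein-coupled receptors until it is deaminated or taken up and phosphorylated. Inside the cell inosine is split to hypoxanthine, which is either salvaged to a nucleotide or oxidised through xanthine to urate. In the mouse, unlike in humans, the liver goes on to oxidise urate to allantoin. Xanthine oxidoreductase has long been discussed in ischemia and reperfusion, because its oxidase form passes electrons to oxygen, and extracellular adenosine has been studied there as a protective signal.

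Values are FPKM, fragments scaled to gene length and to library size, so that levels of different genes can be set beside each other. Library totals rebuilt from the values were 54042831 to 68922517 reads in IR injury and 53622229 to 71752584 reads in Sham. The 9 hepatocyte markers analysed here summed to 49021 to 51645 FPKM in IR injury and 59483 to 62394 FPKM in Sham, and none of them was at 0 in any library. Alb alone made up 36745 to 39389 FPKM in IR injury and 44782 to 49549 FPKM in Sham. Each library is labelled as its own biosample, with no word on whether that means 1 animal, so the p-values cover library-to-library spread alone, and part of it may be technical. The response was broad: of 10316 genes with a mean of at least 1 FPKM, 78.1% passed the threshold of an adjusted p of 0.05 (limma), 24.3% higher and 53.8% lower in IR injury. The median log2 fold change of these genes was -0.23, and median-of-ratios scaling, which sets the typical gene level between libraries, moved it to 0.0027 and the shares to 38.2% higher and 38.1% lower. Of the 9 hepatocyte markers 6 fell and 1 rose, and with that scaling 1 was lower and 2 higher. In whole tissue, fewer cells of a type and less RNA per cell cannot be told apart.

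Of the 10 genes, 9 passed the filter and all 9 passed the threshold, against 78.1% of all tested genes, so that this count is near the background. Entpd1, Ada, Pnp, Xdh and Hprt rose in IR injury (5 genes, against 24.3% of all tested genes higher), and Uox, Entpd5, Nt5e and Adk fell (4 genes, against 53.8% lower). The median log2 fold change of the 9 was 0.25, against -0.23 for all tested genes. That median is the value of Hprt, the smallest change of the 9. With 5 genes higher and 4 lower, it shows no shared direction. Adora2b was under the filter, with a mean of 0.144 FPKM over the 6 libraries. Ada passed the filter only through IR injury (mean of 1.75 FPKM, against 0.716 FPKM in Sham) and Nt5e only through Sham (mean of 0.850 FPKM in IR injury and 2.28 FPKM in Sham), so that these genes had to differ to enter the test. The IR injury and Sham libraries did not overlap in any of the 9 tested genes, nor in Adora2b, against 80.6% of tested genes without overlap.

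**Figure D1:**
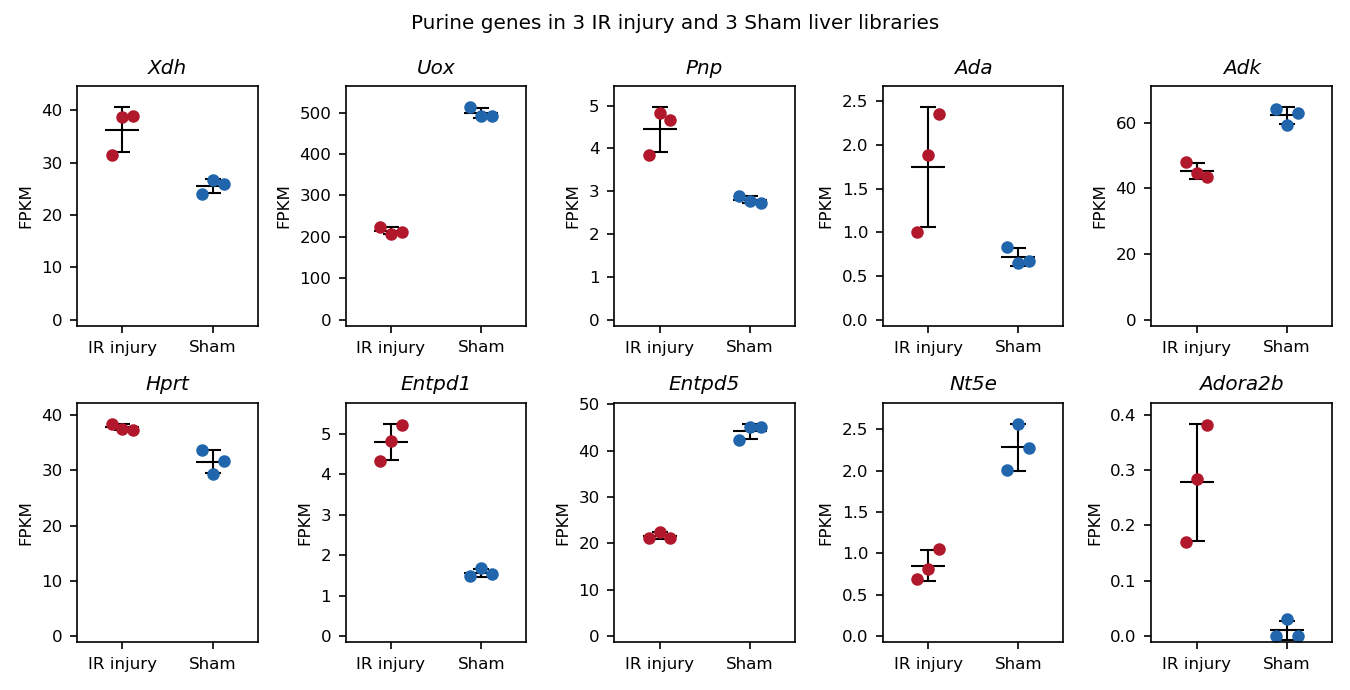
FPKM of the 10 genes in each library (points), with the mean and SD of the 3 IR injury and the 3 Sham libraries (black bars); each panel has its own linear axis. IR injury libraries lie above all Sham libraries for Xdh, Pnp, Ada, Hprt, Entpd1 and Adora2b and below them for Uox, Adk, Entpd5 and Nt5e.

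Entpd1 encodes CD39, the surface enzyme that hydrolyses extracellular ATP and ADP to AMP (ENSMUSG00000048120, mm10 chr19:40612366-40741602, plus strand, protein coding). Its level was 4.33, 4.83 and 5.23 FPKM in the IR injury libraries, against 1.48, 1.67 and 1.54 FPKM in the Sham libraries. Every IR injury library was higher than any Sham library, and the ratio of means was 3.07. The log2 fold change of 1.17 (SE 0.0691, limma adjusted p = 2.55e-06) was the largest rise among the 9 tested genes, and 94.3% of all tested genes had a lower log2 fold change.

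RefSeq (GRCm38.p6) gives Entpd1 a pair of start sites. The 250 bases before each are shown because Entpd1 rose most of the tested genes described here. The upstream start is preceded by chr19:40612116-40612365 and the downstream one by chr19:40659520-40659769, both on the plus strand, and the gene-level values do not show which start was used. The sequences are printed 5′ to 3′ in lower case, and capitals would mark a motif of those searched.
Entpd1, upstream start: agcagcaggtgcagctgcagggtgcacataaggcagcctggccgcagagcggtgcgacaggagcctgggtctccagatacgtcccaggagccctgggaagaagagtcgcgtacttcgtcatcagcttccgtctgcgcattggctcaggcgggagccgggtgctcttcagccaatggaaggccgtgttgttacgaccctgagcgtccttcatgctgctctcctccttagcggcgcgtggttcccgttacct
Entpd1, downstream start: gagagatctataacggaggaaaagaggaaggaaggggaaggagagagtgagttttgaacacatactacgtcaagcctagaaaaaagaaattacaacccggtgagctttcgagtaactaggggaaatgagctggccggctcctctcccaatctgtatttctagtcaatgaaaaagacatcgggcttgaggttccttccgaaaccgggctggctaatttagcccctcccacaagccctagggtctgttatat

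Nt5e encodes CD73, which takes the last phosphate from AMP and so releases adenosine (ENSMUSG00000032420, chr9:88327197-88372092, plus strand, protein coding). It went the other way: its level was 0.687, 0.811 and 1.05 FPKM in the IR injury libraries, against 2.00, 2.57 and 2.27 FPKM in the Sham libraries. The change was -0.83 on the log2 scale (SE 0.0941, limma adjusted p = 9.68e-05), and the Sham mean was 2.68 times the IR injury mean. The log2(FPKM + 1) scale understates changes at such levels, and limma voom on rebuilt reads gave -1.45 (SE 0.138).

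The RNA levels of Entpd1 and Nt5e, for the enzymes before and after AMP, thus changed order. Protein and enzyme activity were not measured in these libraries. Nt5e stood at 0.159, 0.168 and 0.201 times the FPKM of Entpd1 in the IR injury libraries, against 1.35, 1.54 and 1.48 times in the Sham libraries. The within-library log2 ratio of Nt5e over Entpd1, on FPKM + 1, averaged -1.65 ± 0.0436 in IR injury and 0.35 ± 0.0717 in Sham (SD, n = 3 each), a difference of -2.002. A ratio shows unequal change of the genes and not which of them changed.

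Entpd5 encodes a relative of CD39 in the endoplasmic reticulum, where it cleaves nucleoside diphosphates such as UDP that arise as glycoproteins are folded (ENSMUSG00000021236, chr12:84373857-84409029, minus strand, protein coding). Its level was 21.2, 22.5 and 21.2 FPKM in the IR injury libraries, against 42.2, 45.0 and 45.2 FPKM in the Sham libraries. The groups stood far apart relative to their spread, with a log2 fold change of -0.995 (SE 0.0487, limma adjusted p = 1.02e-06). In Sham Entpd5 was the third most abundant of the 10 genes, above Hprt and Xdh, and in IR injury it was below both.

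Adora2b encodes the adenosine receptor of low affinity that raises cyclic AMP (ENSMUSG00000018500, chr11:62248984-62266453, plus strand, protein coding). Its level was 0.170, 0.283 and 0.381 FPKM in the IR injury libraries, against 0, 0.0302 and 0 FPKM in the Sham libraries. These values stand for 18, 36 and 38 rebuilt reads in IR injury and 0, 4 and 0 rebuilt reads in Sham. At this depth, 3 reads correspond to 0.0244 FPKM in Sham library 1 and to 0.0303 FPKM in Sham library 3, so that levels up to these could not be told from 0. Summed over libraries and divided by the totals, the read rate in IR injury was 24.5 times that in Sham, with an exact 95% interval for counting error of 9.25 to 91.8. Without the filter on low values, Adora2b passed (log2 fold change 0.34 on FPKM + 1, limma adjusted p = 0.00486), as did 44.5% of the genes tested in that fit (12.4% higher). It also passed with limma voom on genes of at least 10 rebuilt reads in all (adjusted p = 0.000970), an alternative added after the data were seen, as did 61.6% of genes (17.2% higher). With 92 reads in IR injury and 4 in Sham, it met that minimum only through IR injury, so it had to differ to be tested there.

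The other adenosine receptors lay at other levels. Adora1, encoding the A1 receptor that lowers cyclic AMP, was the most abundant of the 4 at 4.64 ± 0.462 FPKM in IR injury and 6.61 ± 0.283 FPKM in Sham (SD, n = 3 each). It fell by 0.43 on the log2 scale (SE 0.0692, limma adjusted p = 0.000646), and median-of-ratios scaling gave -0.18 (adjusted p = 0.0267). Exons of Adora1 share 20.1% of their bases with exons of Mybph on the opposite strand, which was at 0.0208 FPKM in IR injury and 0 FPKM in Sham. Adora2a, encoding another receptor that raises cyclic AMP, was under the filter at 0.466 ± 0.0380 FPKM in IR injury and 0.710 ± 0.0432 FPKM in Sham, without overlap between the groups. Adora3, encoding the A3 receptor, was at 0.0458 ± 0.0196 FPKM in IR injury and 0.0166 ± 0.0136 FPKM in Sham, and its groups overlapped. Exons of Adora3 share 20.9% of their bases with those of Tmigd3 on the same strand. In order of level the receptors ran Adora1, Adora2a, Adora2b and Adora3 in IR injury, with no overlap between neighbours. In Sham the ranges of Adora3 and Adora2b, the lowest pair, overlapped.

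The 250 bases before the RefSeq start of Adora2b (GRCm38.p6, chr11:62248734-62248983, plus strand) are shown because its reads were almost absent from Sham.
Adora2b: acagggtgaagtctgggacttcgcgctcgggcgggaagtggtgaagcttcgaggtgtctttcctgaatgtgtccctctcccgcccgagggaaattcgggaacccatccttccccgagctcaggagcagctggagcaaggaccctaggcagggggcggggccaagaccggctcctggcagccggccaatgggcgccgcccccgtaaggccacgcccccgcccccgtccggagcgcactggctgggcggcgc

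Adenosine is removed by Ada, adenosine deaminase, which makes inosine, and by Adk, adenosine kinase, which makes AMP. Ada (ENSMUSG00000017697, chr2:163726584-163750239, minus strand, protein coding) was at 1.01, 1.88 and 2.36 FPKM in the IR injury libraries, against 0.831, 0.647 and 0.671 FPKM in the Sham libraries. The IR injury libraries spread widely, and the lowest of them was close to the highest Sham library. The rise was 0.65 on the log2 scale (SE 0.173, limma adjusted p = 0.00946), and it depended on which IR injury library was left out. It was 0.86 without library 1 (adjusted p = 0.000171), 0.60 without library 2 (adjusted p = 0.0346) and 0.49 without library 3 (adjusted p = 0.0225). Limma voom on rebuilt reads gave 1.21 (adjusted p = 0.00465).

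Adk (ENSMUSG00000039197, chr14:21052574-21448569, plus strand, protein coding) was at 48.1, 44.6 and 43.3 FPKM in the IR injury libraries, against 64.1, 59.3 and 63.0 FPKM in the Sham libraries. It fell by 0.45 on the log2 scale (SE 0.0551, limma adjusted p = 0.000152). Under median-of-ratios scaling it did not pass (-0.15, limma adjusted p = 0.0585), but with quantile normalization it did (-0.33, limma adjusted p = 0.000510). The size of its fall thus depended on the scaling. Adk remained far more abundant than Ada in every library: the level of Adk was 47.6, 23.7 and 18.4 times that of Ada in the IR injury libraries, against 77.1, 91.6 and 93.9 times in the Sham libraries. The log2 ratio of Ada over Adk, on FPKM + 1, was -4.11 ± 0.457 in IR injury and -5.20 ± 0.0541 in Sham (SD, n = 3 each).

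Pnp encodes purine nucleoside phosphorylase, which splits inosine and guanosine to hypoxanthine and guanine (ENSMUSG00000115338, chr14:50931082-50965237, plus strand, protein coding). Its level was 3.85, 4.82 and 4.66 FPKM in the IR injury libraries, against 2.89, 2.78 and 2.73 FPKM in the Sham libraries, and the groups did not overlap. The rise was 0.515 on the log2 scale (SE 0.0750, limma adjusted p = 0.000392). Its neighbour Pnp2 lies within the same span, and the coding sequences of the pair are 97.9% identical over 870 aligned bases, with an identical run of 292 bases, so that reads could have been split between them. Pnp2 was listed at 0.121, 0.0183 and 0.0350 FPKM in the IR injury libraries, against 0.236, 0.149 and 0.165 FPKM in the Sham libraries. With both genes summed the log2 fold change was 0.46 (adjusted p = 0.000507). Of the 3979 exon bases of Pnp, 718 are shared with Gm49342 on the same strand, a gene not analysed here.

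The 250 bases before the RefSeq start of Pnp (GRCm38.p6, chr14:50944053-50944302, plus strand) hold the palindrome TTGCGCAA, a sequence bound by C/EBP transcription factors, printed in capitals. It begins 132 bases before the start. This start lies within the gene span given above for Pnp, and the gene-level values do not show which start was used.
Pnp: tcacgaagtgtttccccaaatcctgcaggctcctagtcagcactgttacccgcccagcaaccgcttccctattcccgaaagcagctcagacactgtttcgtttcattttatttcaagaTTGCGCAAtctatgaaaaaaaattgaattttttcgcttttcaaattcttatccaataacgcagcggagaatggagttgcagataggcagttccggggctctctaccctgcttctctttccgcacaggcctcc

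The motif is in 0.164% of the 32851 promoters of the RefSeq table when the 250 bases before each start are searched on both strands. Promoters of 9 of the 10 genes (11 sequences) were in that table, and 3 more motifs were searched in them: ACGTG, the core of the hypoxia response element (in 16.6% of all promoters), TGACGTCA, the cyclic AMP response element (in 1.55%), and TGANTCA, the AP-1 site (in 6.75%). Among the 11 sequences, the only other match was ACGTG in that of Entpd5, 13 bases before the start. The motifs were picked with the sequences in view, a match is a run of letters and not a measured binding site, and no match says only that these letters are not in this window.

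Xdh encodes xanthine oxidoreductase, which oxidises hypoxanthine to xanthine and xanthine to urate (ENSMUSG00000024066, chr17:73883895-73950196, minus strand, protein coding). Its level was 31.4, 38.7 and 38.9 FPKM in the IR injury libraries, against 24.1, 26.6 and 26.0 FPKM in the Sham libraries. All IR injury libraries were higher, library 1 by the least, and the ratio of means was 1.42. The rise was 0.49 on the log2 scale (SE 0.0877, limma adjusted p = 0.00129), and median-of-ratios scaling gave 0.78 (adjusted p = 5.11e-05). RNA levels do not show how much of the protein was in its oxidase form.

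Uox encodes urate oxidase, a peroxisomal enzyme that starts the conversion of urate to allantoin (ENSMUSG00000028186, chr3:146570426-146632305, plus strand, protein coding). It was the most abundant of the 10 genes in both groups, at 224, 207 and 213 FPKM in the IR injury libraries, against 513, 492 and 493 FPKM in the Sham libraries. The log2 fold change of -1.22 (SE 0.0455, limma adjusted p = 2.97e-07) was the largest fall among the 9 tested genes on the FPKM + 1 scale, on which 6.32% of all tested genes had a lower value. Nt5e fell further by the ratio of means (2.68, against 2.33 for Uox) and with limma voom (-1.45, against -1.22 for Uox). Under median-of-ratios scaling the log2 fold change of Uox was -0.92 (limma adjusted p = 2.83e-06).

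RNA of the next enzymes of the route fell too. Urad, the decarboxylase that completes allantoin, was at 18.2 ± 2.81 FPKM in IR injury and 47.9 ± 3.20 FPKM in Sham (log2 fold change -1.35, SE 0.103, limma adjusted p = 9.92e-06). Urah, the hydrolase between Uox and Urad, was at 41.9 ± 1.26 FPKM in IR injury and 57.0 ± 4.38 FPKM in Sham (-0.43, adjusted p = 0.000392). Under median-of-ratios scaling the fall of Urah was 0.14 in size (adjusted p = 0.0449). Urah was named after its values were seen, and 12.4% of its exon bases are shared with C330022C24Rik on the opposite strand (0.456 FPKM in IR injury and 1.54 FPKM in Sham).

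The RNA levels of Xdh, for the enzyme that makes urate, and of Uox, for the one that removes it, therefore came closer. Uox had 7.12, 5.34 and 5.47 times the FPKM of Xdh in the IR injury libraries, against 21.3, 18.5 and 19.0 times in the Sham libraries. The log2 ratio of Xdh over Uox, on FPKM + 1, was -2.53 ± 0.226 in IR injury and -4.24 ± 0.106 in Sham (SD, n = 3 each), a difference of 1.70. Urate and allantoin were not measured in these libraries.

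**Figure D2:**
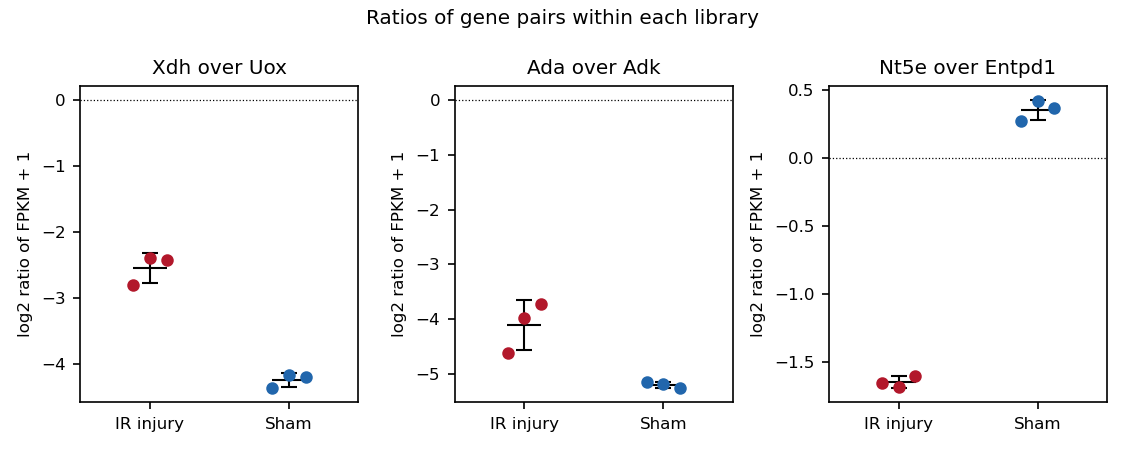
Log2 ratio of FPKM + 1 between pairs of genes in each library (points), with the mean and SD of 3 IR injury and 3 Sham libraries (black bars) and a dotted line at equal levels. Xdh over Uox and Ada over Adk are higher in IR injury, by 1.70 and 1.097, and Nt5e over Entpd1 is lower (a difference of -2.002) and lies on opposite sides of the line in the groups.

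The 250 bases before the RefSeq start of Uox (GRCm38.p6, chr3:146596899-146597148, plus strand) are shown because of its fall. Among the tested genes of the 10 described here, Uox fell most on the FPKM + 1 scale. These bases hold none of the motifs searched. The start lies within the gene span given above for Uox, and the gene-level values do not show which start was used.
Uox: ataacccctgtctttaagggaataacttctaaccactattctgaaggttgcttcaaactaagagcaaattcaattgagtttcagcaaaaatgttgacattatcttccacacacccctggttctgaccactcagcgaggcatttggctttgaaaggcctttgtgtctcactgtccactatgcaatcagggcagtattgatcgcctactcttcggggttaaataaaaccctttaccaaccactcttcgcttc

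Hprt encodes the salvage enzyme that returns hypoxanthine and guanine to nucleotides and is often used as a reference gene (ENSMUSG00000025630, chrX:52988137-53021659, plus strand, protein coding). Its level was 38.5, 37.6 and 37.4 FPKM in the IR injury libraries, against 33.7, 29.4 and 31.7 FPKM in the Sham libraries. Without rescaling the change was the smallest of the 9 but passed, with a log2 fold change of 0.25 (SE 0.0560, limma adjusted p = 0.00374). It was 0.40 with quantile normalization and 0.55 by median of ratios (limma adjusted p = 4.41e-05). Under these scalings Adk changed less, by -0.33 and -0.15. In IR injury its range overlapped that of Xdh, the gene next to it in level, and in Sham Hprt was above Xdh without overlap.

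Rescaling left the directions of the 9 tested genes as they were. Under median-of-ratios scaling 8 of the 9 passed, against 76.3% of all tested genes, and the log2 fold changes were 1.39 for Entpd1, 0.80 for Ada, 0.78 for Xdh, 0.75 for Pnp and 0.55 for Hprt. They were -0.92 for Uox, -0.70 for Entpd5 and -0.66 for Nt5e, and all of these passed (the highest limma adjusted p was 0.00282, that of Ada). Adk alone did not pass.

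**Figure D3:**
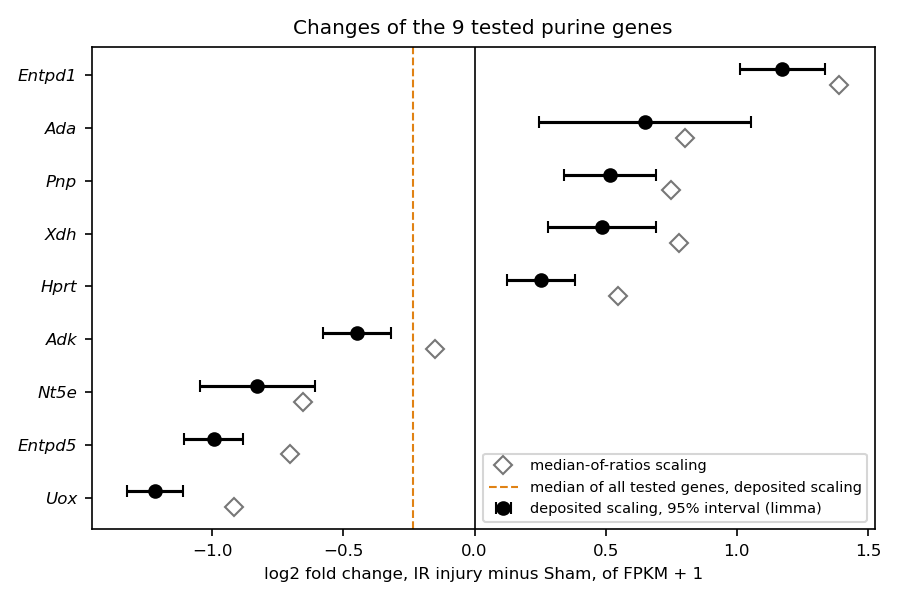
Log2 fold change of FPKM + 1, IR injury minus Sham, of the 9 tested genes with the 95% interval from limma (filled points) and the value under median-of-ratios scaling (open diamonds); the dashed line is the median of all tested genes, -0.23. Entpd1, Ada, Pnp, Xdh and Hprt lie right of 0 under both scalings, and Adk comes closest to 0 under median-of-ratios scaling, at -0.15.

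Markers of other cells also differed between the groups, and cells such as endothelium and leukocytes are known to carry CD39. All 7 tested neutrophil markers rose, against 24.3% of all tested genes, but 3 of them (Retnlg, Cxcr2 and Mmp8) passed the filter only through IR injury and had to rise to be tested. The 10 of the list summed to 152, 174 and 194 FPKM in the IR injury libraries, against 12.3, 12.6 and 11.1 FPKM in the Sham libraries. The defining marker Ly6g was at 0.0370, 0.616 and 0.354 FPKM in the IR injury libraries, against 0.0318, 0 and 0 FPKM in the Sham libraries. Of 6 monocyte markers, 3 were tested and rose, Chil3 having passed the filter only through IR injury. The other 3 were under the filter, each without overlap between the groups. Ly6c2 was at 1.26 FPKM in IR injury and 0.446 FPKM in Sham, and Ccr2 at 0.897 FPKM in IR injury and 0.418 FPKM in Sham. Cx3cr1 went the other way, at 0.0218 FPKM in IR injury and 0.304 FPKM in Sham. The list summed to 198 to 217 FPKM in IR injury and 126.5 to 149.8 FPKM in Sham, of which Fn1 alone made up 171 to 188 FPKM in IR injury and 119 to 143 FPKM in Sham. Of 9 Kupffer cell markers 7 fell and none rose, against 53.8% of all tested genes lower. With median-of-ratios scaling 6 were lower and none higher, against 38.1% of all tested genes lower. The Kupffer sums were 172 to 217 FPKM in IR injury and 323 to 332 FPKM in Sham. Of 10 sinusoidal endothelial markers 7 fell and 2 rose, and with median-of-ratios scaling 6 were lower and 2 higher. Their sums of 46.0, 67.2 and 93.8 FPKM in the IR injury libraries spread around the 64.3 to 72.8 FPKM of Sham. Lyve1, one of the genes that rose, held 22.4, 33.7 and 48.6 FPKM of the IR injury sums, against 12.02, 11.5 and 9.01 FPKM in the Sham libraries. Among those that fell, Kdr was at 0.249 FPKM in IR injury and 4.16 FPKM in Sham, Oit3 at 3.125 FPKM in IR injury and 10.2 FPKM in Sham, and Stab2 at 2.46 FPKM in IR injury and 6.87 FPKM in Sham.

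All 8 stellate cell and fibroblast markers fell, against 53.8% of all tested genes lower. With median-of-ratios scaling all 8 were lower too, against 38.1% of all tested genes. Of these markers 2 (Col1a1 and Reln) passed the filter only through Sham, as did the endothelial markers Kdr and Tek. The stellate sums were 39.1 to 55.4 FPKM in IR injury and 130.4 to 138.0 FPKM in Sham. The T and NK cell markers summed to 1.36 to 2.04 FPKM in IR injury and 2.78 to 3.66 FPKM in Sham, and the B cell markers to 0.702 to 1.01 FPKM in IR injury and 2.26 to 2.49 FPKM in Sham. The 5 cholangiocyte markers summed to 3.89 to 4.92 FPKM in IR injury and 2.21 to 2.60 FPKM in Sham. The 4 smooth muscle markers summed to 0.637 to 1.77 FPKM in IR injury and 2.76 to 3.87 FPKM in Sham. Erythroid markers (116.5 to 129 FPKM in IR injury and 104 to 149 FPKM in Sham) and markers of the exocrine pancreas (1.60 to 2.27 FPKM in IR injury and 1.67 to 2.20 FPKM in Sham) overlapped between the groups. IR injury library 1 was the lowest of its group for Entpd1, Entpd5, Ada, Adora2b, Nt5e, Pnp and Xdh. For Uox, Adk and Hprt this library was the highest of its group. It was also the lowest for the neutrophil, monocyte, endothelial, T and NK cell, cholangiocyte, smooth muscle and erythroid sums. It was not the lowest for the hepatocyte, Kupffer, stellate, B cell and pancreas sums. The part of other cell types in the changes of the purine genes was not tested.

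The rest of the pathway was read from lists of related genes, whose counts stand against 53.8% of all tested genes lower and 24.3% higher. Their counts with median-of-ratios scaling stand against 38.1% lower and 38.2% higher. Adal, Pfas, Entpd6, P2ry1, Slc17a9 and Mocs3 passed the filter only through Sham, and Impdh1 only through IR injury, so that they had to differ to be tested. Of 13 tested genes of purine degradation outside the 10, 9 fell and 2 rose, with a median log2 fold change of -0.32, against -0.23 for all tested genes. With median-of-ratios scaling 6 were lower and 4 higher. After Urad, the largest falls were those of Mtap, which splits methylthioadenosine (1.89 ± 0.276 FPKM in IR injury and 4.965 ± 0.105 FPKM in Sham, log2 fold change -1.05), and of Adal, a relative of adenosine deaminase that acts on methylated AMP (0.844 ± 0.0440 FPKM in IR injury and 2.16 ± 0.106 FPKM in Sham, -0.78). The genes that rose, named after their values were seen, were Gda, guanine deaminase, which makes xanthine from guanine (7.97 ± 0.688 FPKM in IR injury and 4.50 ± 0.0695 FPKM in Sham, 0.70, limma adjusted p = 2.71e-05), and Samhd1, which breaks down deoxynucleotides (0.23). Under median-of-ratios scaling the value of Samhd1 was 0.48.

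Xanthine oxidoreductase carries a molybdenum cofactor, and the genes of that cofactor split. Mocs1 (30.9 ± 0.366 FPKM in IR injury and 24.75 ± 0.563 FPKM in Sham, log2 fold change 0.31) and Mocs2 (0.29), which build its precursor, and Mocos, which adds the sulfur that xanthine oxidoreductase and the aldehyde oxidases need (13.3 ± 0.517 FPKM in IR injury and 11.1 ± 0.176 FPKM in Sham, 0.25), rose. These are the 3 of 10 genes of the list that rose, named after their values were seen. The other 7 fell. Among them were 2 further genes of cofactor synthesis, also named after their values were seen: Mocs3, which supplies sulfur to the cofactor (0.898 ± 0.182 FPKM in IR injury and 2.59 ± 0.179 FPKM in Sham, -0.92), and Gphn, which inserts the molybdenum (8.53 ± 0.470 FPKM in IR injury and 16.7 ± 0.206 FPKM in Sham, -0.89). The others were molybdenum enzymes, with the largest changes in Suox, sulfite oxidase (13.2 ± 0.629 FPKM in IR injury and 39.2 ± 0.876 FPKM in Sham, -1.51), the aldehyde oxidase Aox3 (-1.26), and Mtarc1, a mitochondrial reductase (81.8 ± 4.28 FPKM in IR injury and 184 ± 8.54 FPKM in Sham, -1.16). Median-of-ratios scaling gave the same counts of 3 higher and 7 lower, with 0.60 for Mocs1, 0.57 for Mocs2 and 0.53 for Mocos.

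Of the 9 tested genes in the list of ectonucleotidases and related proteins, beyond Entpd1 and Nt5e, 7 fell and 1 rose. This stands against 53.8% of all tested genes lower and 24.3% higher. The median was -0.46, against -0.23 for all tested genes. Entpd8, a nucleotidase of the bile canaliculus, was at 12.3 ± 0.671 FPKM in IR injury and 32.3 ± 2.41 FPKM in Sham (log2 fold change -1.32, limma adjusted p = 1.18e-06). Dpp4, which in humans anchors adenosine deaminase at the cell surface, was at 11.1 ± 0.283 FPKM in IR injury and 23.7 ± 0.894 FPKM in Sham (-1.03). The gene that rose was Cd38, which consumes NAD and is found on immune cells, at 13.55 ± 1.67 FPKM in IR injury and 5.77 ± 0.190 FPKM in Sham (1.098, adjusted p = 9.92e-06). Entpd1 and Entpd8, relatives that hydrolyse extracellular ATP, therefore changed in opposite directions, and their order of level was the same in both groups.

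Of 25 other receptors, transporters and release genes only 7 were tested, of which 6 fell and none rose, against 53.8% of all tested genes lower. With median-of-ratios scaling 6 were lower and 1 higher, which was P2ry2, a receptor for ATP and UTP (5.75 ± 0.495 FPKM in IR injury and 5.04 ± 0.448 FPKM in Sham, 0.16 and not passed without that scaling, 0.415 and adjusted p = 0.000884 with it), named after its values were seen. Slc29a1, the equilibrative carrier through which adenosine enters and leaves cells, was at 11.5, 13.6 and 13.7 FPKM in the IR injury libraries, against 31.0, 30.0 and 29.4 FPKM in the Sham libraries. It fell by 1.16 on the log2 scale (SE 0.0702, limma adjusted p = 2.90e-06). P2ry1, a receptor for ADP (0.488 ± 0.0660 FPKM in IR injury and 2.10 ± 0.369 FPKM in Sham, -1.05), and P2rx4, an ATP-gated channel (7.52 ± 0.412 FPKM in IR injury and 13.8 ± 0.276 FPKM in Sham, -0.80), also fell. Under median-of-ratios scaling P2rx4 was at -0.52. Exons of P2ry1 share 23.1% and those of Slc29a1 6.86% of their bases with opposite-strand genes, Gm37035 and Gm17080, and how strand was handled is not stated in the labels. Gm17080 was at 0.235 FPKM in IR injury and 4.42 FPKM in Sham. Of 5 tested genes of urate transport 4 fell, led by the urate carrier Slc2a9 (3.22 ± 0.300 FPKM in IR injury and 9.85 ± 0.261 FPKM in Sham, -1.37, adjusted p = 7.09e-07), with Slc17a1 at -0.64. Slc22a7, an organic anion carrier, rose (5.17 ± 0.5001 FPKM in IR injury and 2.51 ± 0.106 FPKM in Sham, 0.81). With median-of-ratios scaling 3 of these 5 were lower and 1 higher, with Slc17a1 at -0.40.

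Salvage genes were split in direction, and more synthesis genes fell than rose. Of 16 tested genes of salvage and interconversion 6 rose and 6 fell (8 and 6 under median-of-ratios scaling), with a median of -0.05. Among the largest changes were falls of mitochondrial enzymes: the adenylate kinase Ak4 (6.01 ± 0.115 FPKM in IR injury and 20.4 ± 0.595 FPKM in Sham, -1.61) and the deoxyguanosine kinase Dguok (-0.66). Of 9 genes of de novo synthesis 6 fell and 2 rose, against 53.8% of all tested genes lower and 24.3% higher. Their median was -0.74, against -0.23 for all tested genes. With median-of-ratios scaling 6 were lower and 3 higher, against 38.1% and 38.2% of all tested genes. On the FPKM + 1 scale the largest fall was that of Prps2 (1.16 ± 0.247 FPKM in IR injury and 3.60 ± 0.188 FPKM in Sham, -1.09), which makes the ribose phosphate donor, followed by its regulator Prpsap1 (-0.98) and Pfas, an enzyme of the middle of the route (-0.95). Pfas fell further than Prps2 with limma voom (-1.93, against -1.63 for Prps2). Ppat (0.27), the entry enzyme of the route, and Paics (87.1 ± 5.11 FPKM in IR injury and 66.7 ± 0.951 FPKM in Sham, 0.38), the most abundant of the list, rose, and were named after their values were seen. Under median-of-ratios scaling the values were 0.54 for Ppat and 0.68 for Paics, whose exons share 272 bases on opposite strands.

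**Figure D4:**
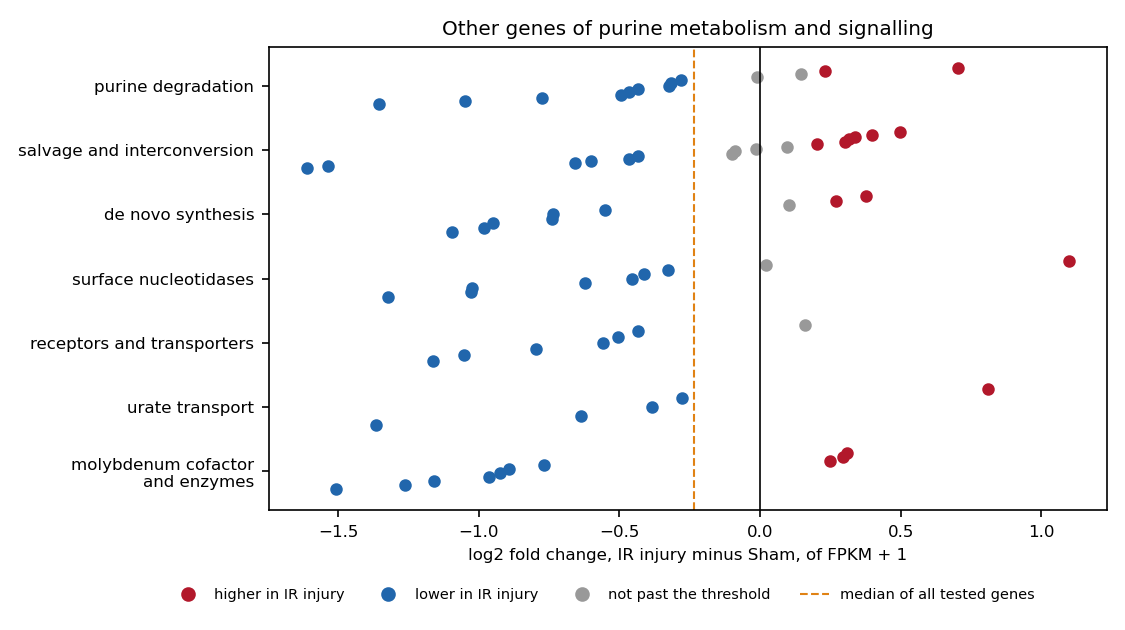
Log2 fold change of FPKM + 1, IR injury minus Sham, of each tested gene in 7 lists of related purine genes, coloured by direction where the limma adjusted p passed the threshold; the dashed line is the median of all tested genes, -0.23. Receptors and transporters hold no gene that rose on this scale, though 1 was higher with median-of-ratios scaling, and Cd38 is the surface enzyme on the right, at 1.098.

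Over the 6 libraries, the genes whose log2 profile lay nearest to that of Entpd1 among 4892 genes with a mean of at least 5 FPKM were Myh9, Lurap1l and Plin4, at Euclidean distances of 0.0921, 0.121 and 0.131. Those nearest to Uox were Ddah1, Idh2 and Tm6sf2, at 0.0919, 0.0946 and 0.111. With 2 groups such a distance mostly reads the size of the change between them on the FPKM + 1 scale. That scale understates the change of Entpd1, for which limma voom on rebuilt reads gave a log2 fold change of 1.61. Its nearest genes therefore need not match it in ratio.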

How the data were processed

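RNA of mouse liver was sequenced in 3 IR injury and 3 Sham libraries, made with a SMARTER mRNA-Seq kit, per the labels' protocols. The authors deposited 1 table of FPKM values with 1 column per library, and no column was left unused. The genome was mm10, per the submitters' processing notes. Aligner, counter, annotation and strand handling were not given in the sources used here. Group and replicate come from each library's title. The members and lists were chosen with earlier results of these data known, so p-values are adjusted over all tested genes.

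Genes with a mean of at least 1 FPKM were tested with limma 3.58.1 (R 4.3.3; trended eBayes, two-sided) on log2(FPKM + 1) with p adjusted by Benjamini and Hochberg and called under 0.05. Fold changes use the same scale, which understates those of low genes. Reads were rebuilt from FPKM, the GENCODE M21 exon length and a library total, and were whole within 0.05 for 98.3% of 27072 genes. Intervals and floors cover counting error only. Libraries of a group differed by more than sampling noise (median chi-square of 1.91 to 3.88 per pair). Promoters are from RefSeq (GRCm38.p6). All 10 members were named, as were up to 3 genes per list with the largest change past the threshold, Pnp2 and the adenosine receptors. One gene that this rule picks is not reported here. The fit was tested on simulated data. Alternatives were other pseudocounts, filters, scalings and limma settings, reads with limma voom, summed rows of a symbol, Pnp and Pnp2 summed, a block for replicate number, and each library left out in turn. Other steps used Python 3.11.15.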

Additional observations from a re-analysis of the deposited data

How the results depend on the processing

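The 9 tested members kept their direction under each alternative that tested them, and Adk alone lost its call, under median-of-ratios scaling (-0.15, limma adjusted p = 0.0585). Over all genes, a minimum mean of 5 FPKM gave 1359 higher and 2573 lower, and left 2 members higher, since fewer genes are tested. Median-of-ratios scaling gave 3939 genes higher, and no filter 8843 lower. With a pseudocount of 0.1 the difference in the log2 ratio was 1.57 for Ada over Adk and -2.89 for Nt5e over Entpd1, and with 0.5 Nt5e over Entpd1 gave -2.40. Leaving out 1 library gave 2335 to 2479 genes higher and 5248 to 5530 lower, with members at 5 higher and 4 lower each time. Same-numbered libraries did not deviate together (correlations of -0.039, 0.012 and -0.104), so the numbers were not taken as pairs. With the replicate block 2473 genes were higher and 5491 lower, and members stayed at 5 higher and 4 lower. P2ry2 (0.16, not passed) passed with the replicate block (adjusted p = 0.0288), with quantile normalization (0.34), median-of-ratios scaling (0.415), without the most abundant genes (0.21) and without Sham library 3 (0.22). Limma voom on genes of at least 10 rebuilt reads, added after the data were seen, gave 4.85 for Adora2b, -1.96 for Pnp2, -0.62 for Adora2a and 1.51 for Adora3 (adjusted p = 0.0899). Few reads limit Adora2b, Adora3 and Pnp2.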
